A study of Mus musculus with 61 samples.

Results

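The Akr1c genes lie side by side on mouse chromosome 13 and code for aldo-keto reductases. Of the 24421 genes counted in every library of the series, 8 are members, taken by symbol: Akr1c6, Akr1c12, Akr1c13, Akr1c14, Akr1c18, Akr1c19, Akr1c20 and Akr1c21. The cluster was selected on the fold changes of Akr1c12, Akr1c13 and Akr1c18, which were seen to go up with the Y665H form of STAT5B over the empty vector in CD4+ T cells that lack STAT5. For the members, that comparison and those that share its libraries are therefore given below as values with no test. For genes outside the cluster, calls and adjusted p from these comparisons are given.

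Aldo-keto reductases of this family use NADPH or NADP to convert carbonyl groups to alcohols and back, mainly on steroids and prostaglandins. The product of Akr1c18 inactivates progesterone, and its activity was an early marker of T cells grown with cytokines. Akr1c18 is also known as a gene that prolactin controls through STAT5 in the ovary, where it is held down until the end of pregnancy. Akr1c12 and Akr1c13 code for closely related reductases, and Akr1c13 was cloned as a cytokine-regulated gene of myeloid cells. Akr1c14 codes for an enzyme that reduces dihydrotestosterone, and Akr1c6 and Akr1c21 for hydroxysteroid dehydrogenases of liver and kidney.

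The study read total RNA after removal of ribosomal RNA from 61 libraries in 17 groups of C57BL/6 mice aged 2 months. STAT5B carries cytokine signals to the genome, N642H is a leukaemia mutation known to activate it, and Y665F and Y665H change a tyrosine of its SH2 domain. In the CD4+ T cell libraries, naive cells with low CD44 and no CD25 came from pooled lymph nodes and spleens. They were activated through the T cell receptor and CD28, transduced with a GFP retrovirus, kept for 48 h with IL-2 and sorted for GFP. The 5 vectors were empty or carried STAT5B, N642H, Y665H or Y665F, in WT cells and in cells in which Cd4-Cre had deleted floxed Stat5a and Stat5b (called null here), with 3 libraries in each of these 10 groups. The genotype field names the floxed Stat5a/b alleles for both kinds of cell, so WT and null are told apart by the sample titles and by the counts below. Splenic T cells of WT mice, of Stat5b Y665H mice and of Stat5b Y665F mice were kept for 24 h with IL-2 and IL-7 (4 libraries each), beside Y665F cells labelled without interleukin (3 libraries). Spleen, by the tissue field, or splenocytes, by the titles, were read in WT (4), Y665H (5) and Y665F (7) mice and are called spleen here, and all 3 spleen groups and all splenic T cells carry intact Stat5a.

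Libraries of CD4+ T cells held 18825994 to 49850689 reads in genes (median 34590958), those of spleen 24203179 to 43330536 (median 31308525.5) and those of splenic T cells 2017012 to 27394249 (median 13695161). The shallowest single libraries were in splenic T cells of Y665H mice (2017012 to 15896125 reads) and of Y665F mice with interleukins (2851451 to 21423720), and those of Y665F mice without interleukin held 7198500 to 14809823. Levels are given as CPM, counts scaled to library size with TMM factors. In CPM, 3 reads, the floor used here, correspond to 0.0594 to 0.164 in CD4+ T cells, 0.0732 to 0.122 in spleen and 0.124 to 1.46 in splenic T cells. Reads without a gene made up 28.4% to 36.9% in CD4+ T cells and 62.8% to 69.4% in spleen. In splenic T cells with interleukins they made up 63.9% to 72.55% in WT, 68.7% to 71.9% in Y665H and 67.6% to 84.0% in Y665F. In Y665F without interleukin they made up 77.7% to 85.7%. The part of this difference in the comparisons below was not tested.

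The counts of Stat5a and Stat5b were read before any other gene. Null cells with the empty vector held Stat5b at 2.78, 5.30 and 9.49 CPM, against 187 to 209 CPM in WT cells with the empty vector. Null cells with a STAT5B vector held 186 to 365 CPM and WT cells with one 374 to 564 CPM. Stat5b was log2 5.75, 5.19, 5.56 and 5.54 above the empty vector for the vectors STAT5B, N642H, Y665F and Y665H in null cells, and log2 1.30, 1.13, 1.06 and 1.30 above it in WT cells. Stat5a, which no vector carries, was at 1.70 to 14.9 CPM in null cells and at 99.5 to 179 CPM in WT CD4+ T cells. In splenic T cells Stat5b was at 91.8 to 213.5 CPM and Stat5a at 26.2 to 73.4 CPM, and in spleen at 86.1 to 137.7 and 36.0 to 51.3 CPM. A count per gene does not show the base at Y665.

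The T cell markers, 12 of 15 listed genes being in the files, summed to 4213 to 6691 CPM in every CD4+ library. B cell markers summed to at most 7.01 CPM there and erythroid markers to at most 5.46 CPM.

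Akr1c18 was near its floor in null cells with the empty vector and far above it with every STAT5B vector. The 3 empty-vector libraries held 0.275, 0.203 and 0.345 CPM (10, 7 and 10 reads). With STAT5B the values were 11.6, 18 and 9.24 CPM, with N642H 17.2, 24.2 and 13.4 CPM, and with Y665F 21.7, 28.0 and 10.4 CPM. With Y665H they were 5.11, 5.28 and 1.80 CPM, below every library of the other 3 STAT5B vectors and above every library with the empty vector.

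Akr1c12 held 2.56, 2.46 and 2.45 CPM in the null empty-vector libraries. It held 21.1, 21.9 and 17.2 CPM with STAT5B, 18.2, 24.5 and 18.6 CPM with N642H, 19.8, 28.8 and 19.4 CPM with Y665F, and 12.1, 9.62 and 6.77 CPM with Y665H. The Y665H libraries lay between the empty vector and the other 3 vectors with no overlap on either side.

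Akr1c13 had the highest level of the cluster in the null empty-vector libraries, at 10.03, 8.61 and 11.05 CPM. It held 40.7, 45.6 and 39.4 CPM with STAT5B, 42.6, 46.2 and 49.8 CPM with N642H, 46.8, 56.5 and 49.3 CPM with Y665F, and 24.5, 21.45 and 16.5 CPM with Y665H. The order of the vectors was again empty, Y665H, then the other 3, with no overlap between these steps. Per kilobase of exon the mean empty-vector level was 6.90 CPM for Akr1c13, 1.98 CPM for Akr1c12 (value 1.975) and 0.227 CPM for Akr1c18.

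**Figure D1:**
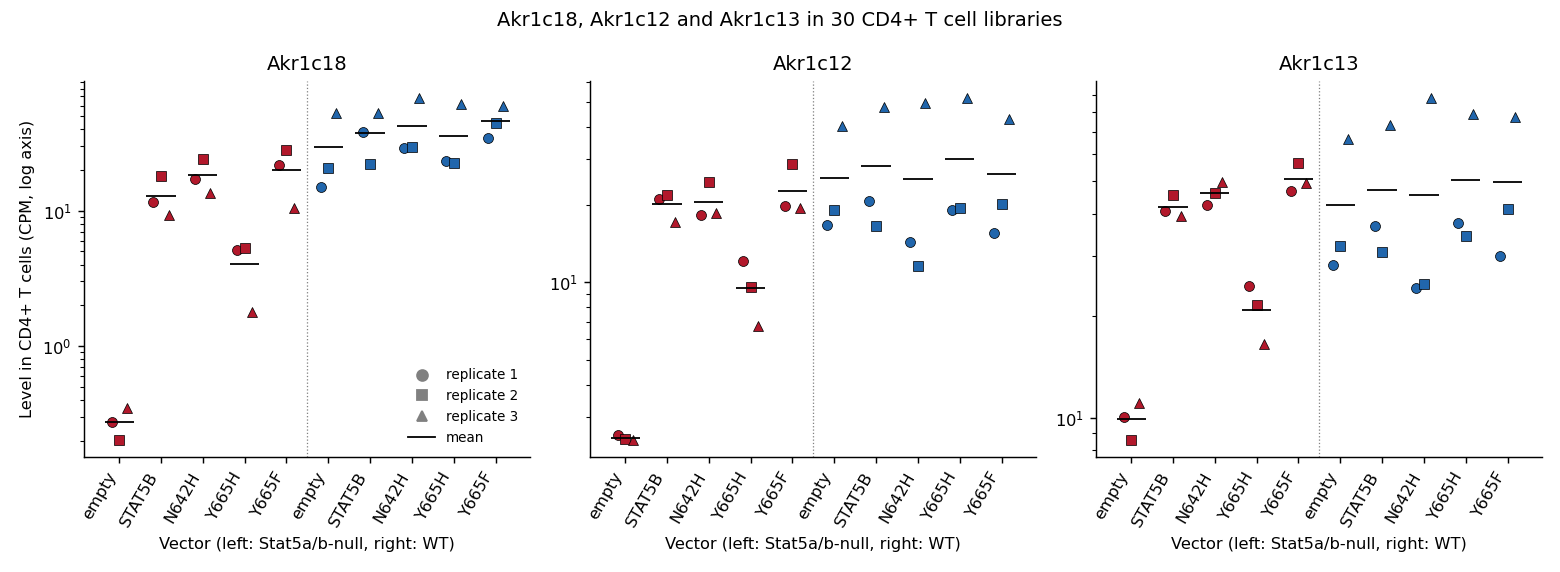
Akr1c12, Akr1c13 and Akr1c18 in each CD4+ T cell library, in CPM on a log scale, by cells (null or WT) and vector; circles, squares and triangles are replicates 1, 2 and 3 and lines are group means.

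The plot of these levels in each CD4+ library shows the null empty-vector points apart from all others for the 3 genes.

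The comparison that chose the cluster, Y665H over the empty vector in null cells, gave log2 1.94 (standard error 0.22) for Akr1c12, 1.09 (0.14) for Akr1c13 and 3.904 (0.52) for Akr1c18. Of the 20113 genes fitted, 5 (0.0249%) passed an adjusted p under 0.05 with a log2 fold change over 1 in size, all upward, and these 3 genes are among them. That count describes the choice and supports nothing. Akr1c13 lay just inside the fold limit. The other fitted members did not pass both limits: Akr1c14 at log2 2.83 (standard error 1.56), Akr1c21 at 1.87 (1.51) and Akr1c19 at −0.50 (1.67), each with overlapping libraries and a few reads. Akr1c6, with 7 reads in total over the null libraries, and Akr1c20, with 9, fell under the filter of 10 reads, so 6 of 8 members were fitted in null cells and 8 in every other set of libraries.

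The other vectors share the empty-vector libraries with that comparison, and their values stand here for description. STAT5B over the empty vector gave log2 3.002 for Akr1c12, 2.07 for Akr1c13 and 5.55 for Akr1c18, where 96 genes (0.477% of 20113) passed both limits. N642H gave 3.003, 2.19 and 6.03, with 579 genes (2.88%) past both limits. Y665F gave 3.16, 2.34 and 6.17, with 476 genes (2.37%). For Akr1c18 the reference is 7 to 10 reads, so these ratios carry the counting error of a small number. Y665H over STAT5B, which shares the Y665H libraries, gave log2 −1.06 (standard error 0.20) for Akr1c12, −0.98 (0.13) for Akr1c13 and −1.65 (0.37) for Akr1c18, where 30 genes (0.149%) passed both limits.

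Over the empty-vector library of the same number, Akr1c18 was 42.1, 88.7 and 26.8 times higher with STAT5B, 62.5, 119.4 and 38.95 times with N642H, 78.8, 137.9 and 30.2 times with Y665F, and 18.6, 26.05 and 5.21 times with Y665H. Replicate 2 was the highest and replicate 3 the lowest for all 4 vectors, which share these 3 denominators of 7 to 10 reads. The Y665H ratios were 4.73, 3.904 and 2.76 for Akr1c12 and 2.45, 2.49 and 1.496 for Akr1c13, with replicate 3 the lowest, while with N642H replicate 1 was the lowest for both genes. Stat5a was 2.46 to 4.31 times higher in null replicate 3 than in the mean of replicates 1 and 2 of its vector.

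The promoters of the 3 genes, and that of Akr1c19, are shown because Akr1c12 and Akr1c13 move together and lie in opposite orientation on the chromosome. They are RefSeq sequences of build GRCm38.p6, 300 bases each, for Akr1c12 at chr13:4279350-4279649 on the minus strand, Akr1c13 at chr13:4190937-4191236 on the plus strand, Akr1c18 at chr13:4150597-4150896 on the minus strand and Akr1c19 at chr13:4233490-4233789 on the plus strand. Capitals mark runs of at least 20 bases shared by Akr1c12 and Akr1c13, and in Akr1c19 a match to TTCNNNGAA; Akr1c18 has neither.

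Akr1c12: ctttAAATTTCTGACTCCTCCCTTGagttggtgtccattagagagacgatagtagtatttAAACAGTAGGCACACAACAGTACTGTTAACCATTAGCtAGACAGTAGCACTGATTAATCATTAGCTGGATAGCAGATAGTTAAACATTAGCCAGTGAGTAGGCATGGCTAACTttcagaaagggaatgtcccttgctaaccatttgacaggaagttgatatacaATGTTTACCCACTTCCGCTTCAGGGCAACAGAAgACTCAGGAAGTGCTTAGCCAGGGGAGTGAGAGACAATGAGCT
Akr1c13: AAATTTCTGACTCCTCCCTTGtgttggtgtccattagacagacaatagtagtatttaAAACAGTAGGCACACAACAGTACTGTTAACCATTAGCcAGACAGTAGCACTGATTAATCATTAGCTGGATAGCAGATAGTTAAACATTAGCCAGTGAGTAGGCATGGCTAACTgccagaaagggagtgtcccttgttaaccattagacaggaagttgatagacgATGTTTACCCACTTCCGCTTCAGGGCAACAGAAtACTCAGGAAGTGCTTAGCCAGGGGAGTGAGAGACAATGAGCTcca
Akr1c18: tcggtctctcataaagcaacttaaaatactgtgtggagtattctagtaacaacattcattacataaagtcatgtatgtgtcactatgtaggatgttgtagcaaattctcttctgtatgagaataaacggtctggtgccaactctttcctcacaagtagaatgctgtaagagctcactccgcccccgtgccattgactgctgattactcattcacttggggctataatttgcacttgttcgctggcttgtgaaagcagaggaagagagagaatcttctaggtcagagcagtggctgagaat
Akr1c19: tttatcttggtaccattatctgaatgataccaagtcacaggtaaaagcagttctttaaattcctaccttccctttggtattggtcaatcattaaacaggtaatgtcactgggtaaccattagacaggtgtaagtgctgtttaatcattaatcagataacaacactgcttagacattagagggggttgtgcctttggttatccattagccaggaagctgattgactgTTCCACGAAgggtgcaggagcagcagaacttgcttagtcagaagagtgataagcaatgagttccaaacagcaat

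Aligned, the Akr1c12 and Akr1c13 promoters differ at 20 positions, 69.3% of the bases lie in shared runs, and the longest run has 75 bases. No other pair of the 7 members with a promoter entry shares a run of 20 bases, and these pairs differ at 130 to 165 positions; Akr1c20 has no entry. TTCNNNGAA, the core of the site STAT5 binds, was searched on both strands and is in 2726 of 32851 promoters (8.3%). Among the members it is in 1 of 7, in Akr1c19 at bases 227 to 235 as TTCCACGAA. That window lies inside Akr1c19 as annotated for the counts (chr13:4228700-4252843), past its annotated start, while the windows of Akr1c12, Akr1c13 and Akr1c18 span the annotated start of their gene. The longer TTCNNNNGAA is in 2284 promoters (6.95%) and in 0 of 7 members. These are matches of letters in a window of 300 bases, and no binding was read here. Akr1c12 and Akr1c13 also share sequence in their transcripts: 347 of 1212 stretches of 50 bases in Akr1c12 (28.6%) recur in Akr1c13. In Akr1c18 7 stretches (0.608%) recur, in Akr1cl, so a read of Akr1c18 is rarely open to assignment elsewhere.

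Among the vectors STAT5B, N642H and Y665F in null cells, whose libraries the choice did not use, edgeR quasi-likelihood tests called no member. For N642H over STAT5B the log2 values were 0.00 (standard error 0.19) for Akr1c12, 0.11 (0.13) for Akr1c13 and 0.48 (0.36) for Akr1c18, with adjusted p of 1.0, 0.975 and 0.938. The count was 0 of 6 members at an unadjusted p under 0.05 and 0 with DESeq2, beside 14 of 20113 genes called by edgeR (0.0696%), 48 by DESeq2 and 1221 at an unadjusted p under 0.05. A block for the replicate number brought the genes called to 66 and left the members at 0.

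For Y665F over STAT5B the log2 values were 0.16 for Akr1c12, 0.26 for Akr1c13 and 0.62 for Akr1c18. The 3 Y665F libraries of Akr1c13 (46.8 to 56.5 CPM) lay above the 3 STAT5B libraries (39.4 to 45.6 CPM), while those of the other 2 genes overlapped. Within replicate numbers, Akr1c13 and Akr1c18 were higher than with STAT5B in all 3 pairs, both with Y665F and with N642H. edgeR called 0 of 6 members and 2 genes (0.00994%), or 39 genes with the block. DESeq2 called 0 members and 27 genes, and 0 members and 1000 genes had an unadjusted p under 0.05. For Y665F over N642H the values were 0.16, 0.15 and 0.14, with 0 members and 0 genes (0%) called by edgeR, 0 and 0 by DESeq2, and 0 and 181 at an unadjusted p under 0.05.

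In WT CD4+ T cells the same 3 genes were expressed with every vector, the empty one included, and 1 replicate number stood apart. Akr1c18 held 14.99, 20.55 and 53.1 CPM with the empty vector, 38.1, 22.15 and 52.8 CPM with STAT5B, 29.1, 29.8 and 68.1 CPM with N642H, 23.4, 22.6 and 61.9 CPM with Y665H, and 34.8, 44.7 and 59.5 CPM with Y665F. Akr1c12 held 16.65, 19.1 and 40.3 CPM with the empty vector, 20.6, 16.5 and 48.05 CPM with STAT5B, 14.3, 11.6 and 49.4 CPM with N642H, 19.1, 19.4 and 51.85 CPM with Y665H, and 15.6, 20.1 and 43.1 CPM with Y665F. Replicate 3 was the highest of its vector in each of these groups, and the vectors overlapped.

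Akr1c13 held 28.3, 32.2 and 66.6 CPM with the empty vector, 36.9, 30.8 and 73.1 CPM with STAT5B, 24.1, 24.8 and 87.9 CPM with N642H, 37.5, 34.4 and 79.0 CPM with Y665H, and 29.96, 41.3 and 77.4 CPM with Y665F. Its replicate 3 was the highest in each vector as well. Replicate 3 over the mean of replicates 1 and 2 was 2.25 to 3.82 for Akr1c12, 2.16 to 3.595 for Akr1c13 and 1.498 to 2.99 for Akr1c18. Of the 11359 genes averaging 1 CPM or more in WT cells, 60 were at least 2 times higher and 90 at least 2 times lower in replicate 3 with every vector. Ordered by the lowest ratio, Akr1c12, Akr1c13 and Akr1c18 stood at places 38, 47 and 138.

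Sex-linked genes also split the WT libraries by replicate number, genes looked at after the members' values were seen. Xist was at 0.715 to 3.21 CPM in WT replicates 1 and 2 and at 1095 to 2253 CPM in replicate 3, and the Y-linked Ddx3y at 75.8 to 100 against 0.277 to 0.462 CPM. In null cells Xist was at 491 to 715, 2.84 to 5.40 and 1074 to 1610 CPM in replicates 1, 2 and 3, and Ddx3y at 64.7 to 93.8, 81.3 to 143.8 and 13.3 to 48.4 CPM. The labels give no sex. The paper names male mice for tissue collection, without saying whether this covers the donors of the CD4+ T cells. WT replicate 3, with almost no Y-linked Ddx3y, departs from that statement if it does cover them. In WT cells replicate number and sex-linked expression cannot be told apart. In null cells, replicate 3 over the mean of replicates 1 and 2 was 0.62 to 0.98 for Akr1c12 and 0.72 to 1.185 for Akr1c13. For Akr1c18 it was 0.35 to 1.445 there. The part of sex in these levels was not tested.

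The vectors over the empty vector in WT cells gave, for Akr1c12, Akr1c13 and Akr1c18, log2 0.17, 0.15 and 0.35 with STAT5B. They gave 0.01, 0.13 and 0.54 with N642H, 0.07, 0.24 and 0.66 with Y665F, and 0.26, 0.25 and 0.29 with Y665H. Standard errors were 0.58, 0.52 and 0.49 for the 3 genes, from a fit that leaves out the replicate number. edgeR called 0 of 8 members in each comparison, beside 2 of 20509 genes for the STAT5B vector (0.00975%), 202 for N642H (0.985%), 145 for Y665F (0.707%) and 1 for Y665H (0.00488%). DESeq2 called 0 members in each, beside 13, 347, 309 and 1 genes, and at an unadjusted p under 0.05 there were 0 members beside 555, 2164, 2932 and 163 genes. With the replicate number as a block, N642H over the empty vector gave log2 −0.16 (standard error 0.15) for Akr1c12 and −0.01 (0.15) for Akr1c13. The block left the members called at 0 in each comparison. The genes called were then 86, 532, 501 and 1 for STAT5B, N642H, Y665F and Y665H.

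Without replicate 3 in every WT group, a setting chosen after seeing the data with 2 libraries against 2, Akr1c18 passed both limits for Y665F over the empty vector at log2 1.17 (standard error 0.22, adjusted p 0.00544). With all libraries the same comparison had an adjusted p of 0.612. The Y665F libraries of Akr1c18 held 34.8 and 44.7 CPM in replicates 1 and 2 against 14.99 and 20.55 CPM with the empty vector. The other 6 WT comparisons called 0 members without replicate 3. The count of all genes called in this setting alone is not given here. Over all alternatives except a single library left out, that count ran from 147 to 501 for Y665F over the empty vector. It ran from 0 to 86, 177 to 567 and 1 to 1 for STAT5B, N642H and Y665H over the empty vector. For N642H, Y665F and Y665H over STAT5B it ran from 0 to 94, 0 to 44 and 0 to 26. Over the empty-vector library of the same number, Akr1c18 in WT replicates 1, 2 and 3 was at 2.54, 1.08 and 0.994 times with STAT5B, 1.94, 1.45 and 1.28 with N642H, 2.32, 2.175 and 1.12 with Y665F, and 1.56, 1.10 and 1.17 with Y665H. The 4 vectors share these 3 denominators.

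Over STAT5B in WT cells, N642H, Y665F and Y665H each gave 0 of 8 members by edgeR, by DESeq2 and at an unadjusted p under 0.05. The genes called were 1 (0.00488%), 0 (0%) and 1 (0.00488%) by edgeR, 21, 10 and 2 by DESeq2, and 526, 632 and 327 genes had an unadjusted p under 0.05. The response to the vectors was not compared between null and WT cells by a test, since the null responses use the libraries that chose the cluster.

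Null cells with a STAT5B vector were next set against WT cells with the empty vector, which hold their own Stat5a and Stat5b. The libraries with the empty vector in both kinds of cell gave log2 −3.35 (standard error 0.53) for Akr1c12, −2.10 (0.43) for Akr1c13 and −6.75 (0.68) for Akr1c18, values with no test since the null libraries are those of the choice. With STAT5B in the null cells the values were −0.34, −0.02 and −1.19, with N642H −0.31, 0.12 and −0.69, and with Y665F −0.16, 0.26 and −0.56. The null libraries of Akr1c18 with STAT5B, at 9.24 to 18 CPM, overlapped WT empty-vector libraries at 14.99 to 53.1 CPM, and the value of −1.19 ran from −1.50 to −0.44 with a library left out, the latter without WT empty-vector replicate 3.

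edgeR called 0 of 8 members in these 3 tests, beside 171 (0.778% of 21975), 165 (0.751%) and 220 (1.00%) genes with STAT5B, N642H and Y665F. DESeq2 called 0 members in each, beside 301, 313 and 355 genes. At an unadjusted p under 0.05 there was 1 member with STAT5B, Akr1c18 (p 0.0164, adjusted p 0.343), and 0 with N642H and with Y665F, beside 2095, 2475 and 2691 genes. With Y665H in the null cells the values, again with no test, were log2 −1.42 (standard error 0.47), −1.02 (0.41) and −2.86 (0.50), and each null Y665H library lay below each WT empty-vector library for the 3 genes.

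**Figure D2:**
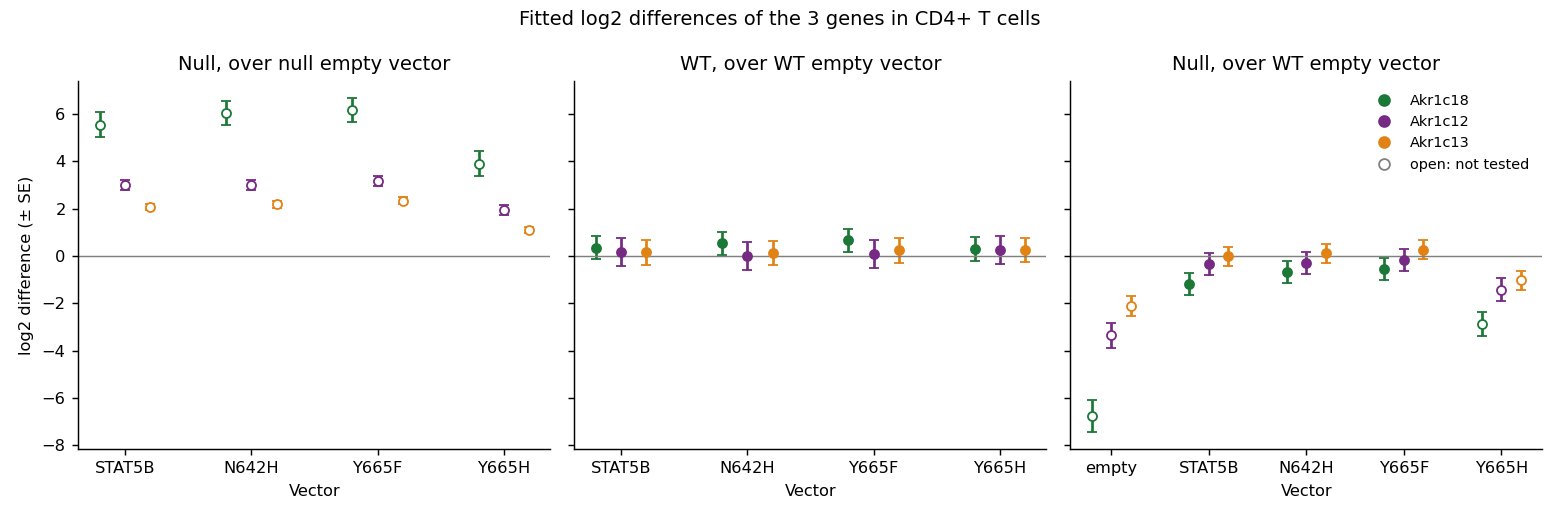
Log2 fold changes of Akr1c12, Akr1c13 and Akr1c18 with standard errors in CD4+ T cells, for each vector over the empty vector of the same cells and for null cells with each vector over WT cells with the empty vector; open marks are values given with no test.

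The plot of these differences puts the null values beside the WT values on 1 scale, with open marks for what the choice of the cluster used.

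Ordered by mean CPM over the 10 CD4+ groups, Akr1c18 ran from WT Y665F at 46.3 (SD 12.5), WT N642H at 42.3 (22.3), WT STAT5B at 37.7 (15.3), WT Y665H at 36.0 (22.4) and WT empty vector at 29.5 (20.6) to null Y665F at 20.02 (8.89), null N642H at 18.3 (5.47), null STAT5B at 12.9 (4.54), null Y665H at 4.06 (1.97) and null empty vector at 0.274 (0.0712). Neighbours differ by less than their spread down to null STAT5B, and the last 2 groups are those of the choice. Akr1c12 ran from 30.1 (18.8) in WT Y665H to 20.1 (2.51) in null STAT5B with no step beyond the spread, then 9.49 (2.66) in null Y665H and 2.49 (0.0575) in null empty vector. Akr1c13 mixed the null and WT groups: null Y665F had the highest mean at 50.9 (5.05), WT empty vector had 42.35, null STAT5B 41.9 (3.26), null Y665H 20.8 (4.04) and null empty vector 9.895 (1.23).

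The other 5 members were close to 0 in CD4+ T cells. Over 30 libraries Akr1c6 had 17 reads in total, Akr1c14 34, Akr1c19 77, Akr1c20 23 and Akr1c21 77, against 24745 for Akr1c12, 46345 for Akr1c13 and 29128 for Akr1c18. They were at 3 reads or fewer in 29, 29, 22, 29 and 19 of the 30 libraries, and none exceeded 0.336 CPM. Akr1cl, a related gene outside the cluster's rule, had 36 reads.

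The cluster spans 537531 bases, chr13:4049011-4586541, in the order Akr1c14, Akr1c18, Akr1c13, Akr1c19, Akr1c12, Akr1c6, Akr1c20 and Akr1c21. The 3 expressed members are thus not a block: Akr1c19 lies between Akr1c13 and Akr1c12, and Akr1c14 is the neighbour of Akr1c18 on the other side. Net1 and Akr1e1, the nearest expressed genes outside, were at 52.4 to 80.7 and 17.7 to 31.4 CPM in CD4+ T cells.

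Net1, on the Akr1c14 side, had log2 0.09, 0.11 and 0.18 with STAT5B, N642H and Y665F over the empty vector in null cells, and Akr1e1, next to Akr1c21, 0.11, 0.15 and 0.17. Neither passed both limits. Klf6, farther out past Akr1e1, rose with N642H (log2 1.05, adjusted p 0.000826) and with Y665F (1.04, adjusted p 0.00114), and had log2 0.39 with STAT5B and −0.14 with Y665H.

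Across the 30 CD4+ libraries, the genes most like each member were found by Pearson r of log2(CPM+1) over 11459 genes. For Akr1c18 they were Fbxo17 (0.944), Fgd6 (0.930), Sntg2 (0.923), Lpar3 (0.9205) and Akr1c12 (0.919). For Akr1c12 they were Akr1c13 (0.9755), Akr1c18 (0.919), Hirip3 (0.857), Fgd6 (0.848) and Lpar3 (0.845), and for Akr1c13 Akr1c12, Ppan (0.872), Akr1c18 (0.864), Gar1 (0.853) and Plekhj1 (0.838). The libraries share vectors, cells and replicate numbers, so r over them describes and tests nothing. Akr1c12 and Akr1c13 had r of 0.983 over the 15 null libraries and 0.986 over the 15 WT libraries, Akr1c12 and Akr1c18 0.981 and 0.801, and Akr1c13 and Akr1c18 0.975 and 0.843.

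Genes of the pathways around the cluster were read from lists, each counted beside all genes of the fit. Of the other aldo-keto reductases, 0 of 11 tested passed both limits in null cells with any of the 4 STAT5B vectors over the empty vector. Their median was log2 0.06 with STAT5B, against 0.00 over all genes. Akr1a1 was the most abundant of them, at 138.1 CPM per kilobase in null and 142.6 in WT cells.

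Of 31 steroid metabolism genes tested in null cells, 0 rose and 1 fell with STAT5B, N642H and Y665F over the empty vector. It was Hsd11b1, which reactivates glucocorticoids, at log2 −1.105 (adjusted p 0.00164), −1.49 and −1.42. With Y665H 0 of 31 passed, and over STAT5B Hsd11b1 was higher with Y665H at log2 1.03, the 1 gene of the list past both limits there. Of the 15 genes of prostaglandin synthesis and breakdown, 0 passed with STAT5B or Y665H, while Hpgds, a prostaglandin D synthase, fell with N642H (log2 −1.74) and with Y665F (−1.54).

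Of the 21 steroid and prostaglandin receptors, 0 passed with any vector over the empty vector in null cells. Of the 18 NRF2-linked antioxidant genes, 2 rose with N642H, Nqo1 (log2 1.23) and Txnrd1 (1.03), and the same 2 with Y665F (1.20 and 1.04). The median of that list was log2 0.29 and 0.33 there, against 0.01 and −0.02 over all genes, and 0 passed with STAT5B or Y665H. Among the null STAT5B, N642H and Y665F groups 0 genes of these 5 lists passed. Of the cell markers over the empty vector in null cells, Thy1 rose with N642H (log2 1.04) and with Y665F (1.08), and Prss2 fell with N642H (−1.75). S100a9 passed both limits with N642H (7.78), from 0 CPM in every empty-vector library. Its N642H libraries ran from 0 to 2.28 CPM (mean 0.776), so the whole group did not rise. Neutrophil markers summed to 0.395, 0.448 and 6.93 CPM in the N642H libraries.

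In WT cells, STAT5B and Y665H over the empty vector moved 0 genes of the 5 lists. With N642H, Hsd11b2 (log2 3.22) and Srxn1 (1.70) rose and the prostacyclin receptor Ptgir fell (−1.025). With Y665F, Srxn1 rose (2.00) and Ptgir fell (−1.15), with 0 of the other aldo-keto reductases in either.

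Null cells with the empty vector over WT cells with it had Dhrs9 at log2 1.49, Hsd11b1 at 1.45 and Hpgds at 2.15, and Osgin1 at −1.47, past both limits. Osgin1 was also lower in null cells with N642H (log2 −1.50) and with Y665F (−1.48). These comparisons share the WT empty-vector libraries. Of the T cell markers, Thy1 was log2 −2.93 and Cd8b1 1.30 in null cells with the empty vector, and Thy1 was −2.03, −1.855 and −1.82 with STAT5B, N642H and Y665F. The mast cell gene Kit had log2 2.38, 1.705, 1.74 and 2.22 with the empty vector, STAT5B, N642H and Y665F in null cells.

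In splenic T cells kept with IL-2 and IL-7, Akr1c12 and Akr1c18 were low in WT and highest in Y665F libraries. Akr1c12 was lower in every Y665H library than in every WT library, while Akr1c18 overlapped between these genotypes. Akr1c18 held 0.832, 0.803, 0.7825 and 1.57 CPM in WT, 0, 0.972, 0.487 and 0.365 CPM in Y665H (0, 2, 7 and 2 reads) and 4.85, 7.93, 4.88 and 1.70 CPM in Y665F. Each Y665F library was above each WT library, Y665F replicate 4 by little, and the Y665H libraries overlapped WT at their floor.

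Akr1c12 held 2.66, 3.81, 2.39 and 3.15 CPM in WT, 0.571, 0.486, 0.904 and 0.548 CPM in Y665H (2, 1, 13 and 3 reads) and 8.51, 13.03, 8.54 and 5.58 CPM in Y665F. The 3 genotypes did not overlap. Akr1c13 held 12.5, 17.2, 12.2 and 22.2 CPM in WT, 6.85, 5.83, 9.31 and 6.58 CPM in Y665H and 32.55, 30.95, 10.7 and 13.9 CPM in Y665F. Its Y665H libraries were below all others, and its Y665F libraries fell on both sides of WT.

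**Figure D3:**
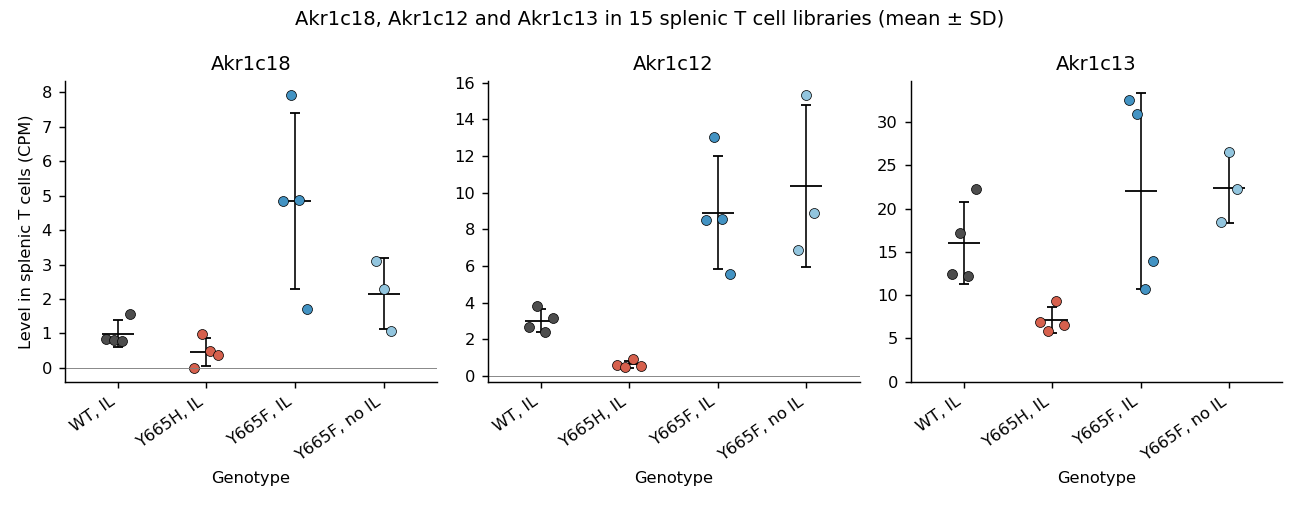
Akr1c12, Akr1c13 and Akr1c18 in each splenic T cell library, in CPM, by genotype and interleukin (IL), with group means and SD.

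The plot of splenic T cell levels shows the Y665H points of Akr1c12 and Akr1c18 close to 0 and those of Y665F spread widely.

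Y665F over WT called 2 of 8 members, beside 342 of 22313 genes (1.53%), a count that ran from 93 without Y665F replicate 4 to 809 without Y665F replicate 1. Akr1c12 rose by log2 1.57 (95% interval 0.88 to 2.25, adjusted p 0.0149) and Akr1c18 by log2 2.27 (1.22 to 3.33, adjusted p 0.0218). Akr1c13 had log2 0.48 (standard error 0.31, adjusted p 0.373). Akr1c19 had log2 2.44 (standard error 0.77, adjusted p 0.0963) from at most 10 reads in any of these libraries. The call of Akr1c18 was lost without WT replicate 2 (log2 2.19, adjusted p 0.0764), without WT replicate 3 (2.18, 0.0611) and without Y665F replicate 2 (1.90, 0.0666).

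Y665H over WT called 0 of 8 members by edgeR, beside 16 genes (0.0717%). The log2 values were −2.09 (standard error 0.43, adjusted p 0.0656) for Akr1c12, −1.13 (0.33, adjusted p 0.29) for Akr1c13 and −1.21 (0.66, adjusted p 0.604) for Akr1c18. DESeq2 called 1 member, Akr1c12 (log2 −2.02, adjusted p 0.0115), and 90 genes, and 2 members, Akr1c12 and Akr1c13, and 1981 genes had an unadjusted p under 0.05. The Y665H values of Akr1c12 rest on 1 to 13 reads a library.

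Y665F over Y665H called 3 of 8 members, beside 1066 genes (4.78%). Akr1c12 was higher in Y665F by log2 3.65 (standard error 0.43, adjusted p 2.52e-05), Akr1c13 by 1.61 (0.33, adjusted p 0.00412) and Akr1c18 by 3.48 (0.64, adjusted p 0.00161). No Y665H library overlapped a Y665F library for these 3 genes. A further setting left out the shallowest libraries, Y665H replicates 1, 2 and 4 and Y665F replicate 3, at 2017012 to 5327354 reads. It was chosen after seeing the data and leaves Y665H with 1 library, assumed to vary like the others. The log2 values were then 3.36 for Akr1c12, 1.52 for Akr1c13 and 3.335 for Akr1c18. Calls are not given for this setting, since 1 library has no spread of its own.

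Y665F cells without interleukin held Akr1c12 at 6.85, 15.35 and 8.92 CPM, Akr1c13 at 18.4, 26.5 and 22.3 CPM and Akr1c18 at 3.105, 2.29 and 1.07 CPM. These overlapped the Y665F cells with interleukins for the 3 genes. With over without interleukin gave log2 −0.22, −0.00 and 1.18 (standard error 0.54, adjusted p 0.265 for Akr1c18), and edgeR called 0 of 8 members and 662 genes (2.97%). DESeq2 called 0 members and 803 genes, and 2 members, Akr1c18 and Akr1c20, and 3824 genes had an unadjusted p under 0.05. The libraries of the series hold no WT splenic T cells without interleukin, so the Y665F level without interleukin has no WT value beside it here. The paper describes T cells without added interleukin as read directly after isolation, without saying which libraries this covers. The cells with interleukins were kept for 24 h, so culture and interleukin cannot be told apart for with over without interleukin.

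The remaining members were at a few reads in splenic T cells. Their highest values were 1.22 CPM for Akr1c6, 2.89 for Akr1c14, 1.61 for Akr1c19, 1.82 for Akr1c20 and 2.745 for Akr1c21, from 61, 95, 73, 45 and 74 reads in total. At an unadjusted p under 0.05, Y665F over WT had Akr1c19 beside the 2 called, and Y665F over Y665H had Akr1c6 and Akr1c21 beside the 3 called. DESeq2 called 2 and 3 members in these comparisons, beside 953 and 1475 genes, and 4620 and 4688 genes had an unadjusted p under 0.05.

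Markers of other cells differed between these libraries. T cell markers, all 12 above 0 in each group, summed to 3045, 3953, 4587 and 3688 CPM in WT, 3037, 2882, 3037 and 3026 in Y665H, 3858, 3375, 1414 and 2263 in Y665F and 2259, 1828 and 2859 in Y665F without interleukin. The 9 B cell markers in the files summed to 119.5, 18.2, 63.0 and 26.8 CPM in WT, 29.98, 46.7, 43.9 and 36.7 in Y665H, 23.0, 41.8, 763 and 213 in Y665F and 38.4, 58.9 and 43.7 in Y665F without interleukin. Y665F replicates 3 and 4 were thus low in T cell and high in B cell markers, of which Ms4a1 was the most abundant in that group.

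The 9 erythroid markers summed to 14.7, 12.2, 37.9 and 5.97 CPM in WT, 16.9, 31.1, 33.9 and 22.5 in Y665H, 7.07, 15.4, 1077 and 84.9 in Y665F and 12.2, 59.4 and 21.1 without interleukin. Alas2 led them, at 529.8 CPM in Y665F replicate 3, and Hba-a1, Hbb-bs and Hbb-bt were at 0 in all Y665F libraries with interleukins. The 9 neutrophil markers, led by S100a9 in the mutants, summed to 18.04, 10.2, 12.9 and 17.2 CPM in WT, 23.7, 71.5, 96.1 and 42.0 in Y665H, 82.0, 82.7, 313 and 79.3 in Y665F and 75.9, 205 and 100.2 without interleukin. Natural killer markers summed to 127.7 to 313 CPM in WT, 78.2 to 160.8 in Y665H and 230.6 to 338.3 in Y665F, with Klra8 and Klra4 at 0. Macrophage markers summed to 138.5 to 166, 25.7 to 408 and 92.4 to 254.8 CPM. The part of these cells in the levels of the cluster was not tested.

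**Figure D4:**
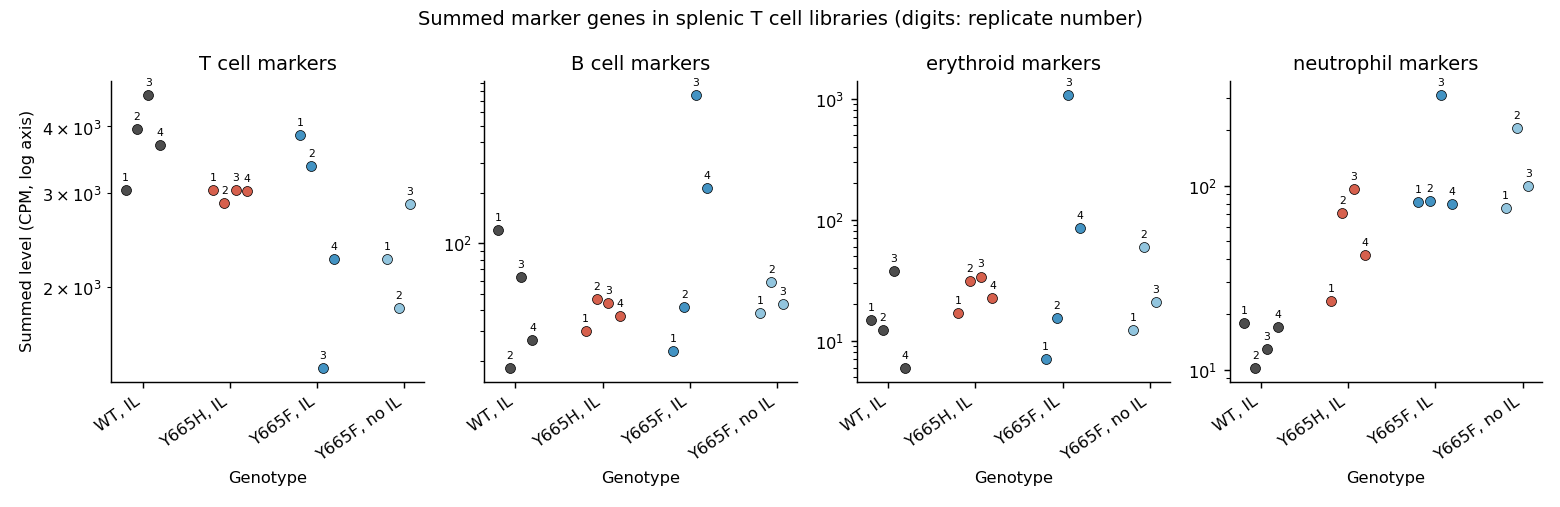
Summed CPM of the T cell, B cell, erythroid and neutrophil marker lists in each splenic T cell library, on a log scale, by genotype and interleukin; numbers are replicate numbers.

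The plot of marker sums sets Y665F replicate 3 apart in 4 lists. Without Y665F replicates 3 and 4, a setting chosen after seeing the data, Y665F over WT called 0 members and 5 genes. The log2 values were then 1.84 for Akr1c12 and 2.67 for Akr1c18, higher than with all libraries, with an adjusted p of 0.0557 for both. Y665F over Y665H kept its 3 members without them, at log2 3.91, 2.11 and 3.88 for Akr1c12, Akr1c13 and Akr1c18. The count of all genes called in that reduced fit is not given here, so these 3 calls stand without a background. In bulk samples such as these, fewer cells of a type and less RNA per cell cannot be told apart.

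By gene, T cell markers had 0 of 12 rising and 1 falling in Y665F over WT, Cd4 at log2 −1.16 (list median −0.74, all genes 0.07). Of 9 neutrophil markers 5 rose, S100a8 (4.02), S100a9 (3.68) and Ngp (3.49) among them. The erythroid Slc4a1 (5.55), the B cell marker Pax5 (3.75) and the eosinophil marker Prg2 (3.904) rose too. In Y665H over WT S100a8 (2.71) alone of the marker lists rose. In Y665F over Y665H 5 B cell markers, the erythroid Slc4a1, the neutrophil Mpo and Ngp, 4 natural killer markers with Klrb1c (2.055) first and the mast cell gene Cma1 (3.03) rose. With over without interleukin, Cd8a (1.10), Ncr1 (2.36) and Klrb1c (1.86) rose.

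The pathway lists in splenic T cells gave few calls. Of the other aldo-keto reductases 0 of 11 passed in Y665F over WT (median log2 0.04, all genes 0.07). Of the steroid metabolism genes Dhrs9 rose (2.85, adjusted p 0.0498), of the prostaglandin genes Ptgs2 (2.555) and Hpgds (1.115) rose, and the membrane progesterone receptor Paqr7 fell (−1.24). The NRF2-linked list had 0 past both limits and a median of −0.34. In Y665H over WT 0 genes of the 5 lists passed.

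In Y665F over Y665H, Cyp17a1 rose (log2 1.89), and the prostaglandin-degrading Hpgd (−3.62), Tbxa2r (−2.17), Ptgir (−1.48), Paqr7 (−1.09) and Nqo1 (−1.60) fell. With over without interleukin, Hsd17b12 (1.315) and Hsd17b7 (1.12) rose. Akr1a1 was again the most abundant of the other reductases, at 41.9 CPM per kilobase.

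In spleen, Akr1c13 was the highest member and Akr1c18 was near its floor. Akr1c13 held 10.2, 8.64, 7.745 and 9.06 CPM in WT, 6.29, 6.81, 6.01, 7.44 and 5.55 CPM in Y665H, and 9.91 to 12.7 CPM with a median of 10.4 in Y665F. The Y665H libraries were below every WT and Y665F library, and WT and Y665F overlapped.

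Akr1c12 held 3.52, 3.60, 3.66 and 4.11 CPM in WT, 2.73, 3.39, 2.40, 3.72 and 1.87 CPM in Y665H, and 4.08 to 5.21 CPM with a median of 4.475 in Y665F. Y665H and WT overlapped, and all Y665F libraries were above all Y665H libraries. Akr1c18 had 3 to 20 reads a library, 0.0949 to 0.521 CPM.

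Akr1c14 held 3.63, 2.92, 2.54 and 2.77 CPM in WT, 2.855, 2.42, 2.37, 2.72 and 2.01 CPM in Y665H, and 1.22 to 1.75 CPM with a median of 1.70 in Y665F. Akr1c19, an aldo-keto reductase of less-known substrates, held 2.04, 1.66, 2.26 and 1.31 CPM in WT, 1.70, 1.44, 1.93, 1.96 and 1.37 CPM in Y665H, and 0.741 to 1.23 CPM with a median of 1.15 in Y665F. For both genes every Y665F library was below every library of the other genotypes, while WT and Y665H overlapped.

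**Figure D5:**
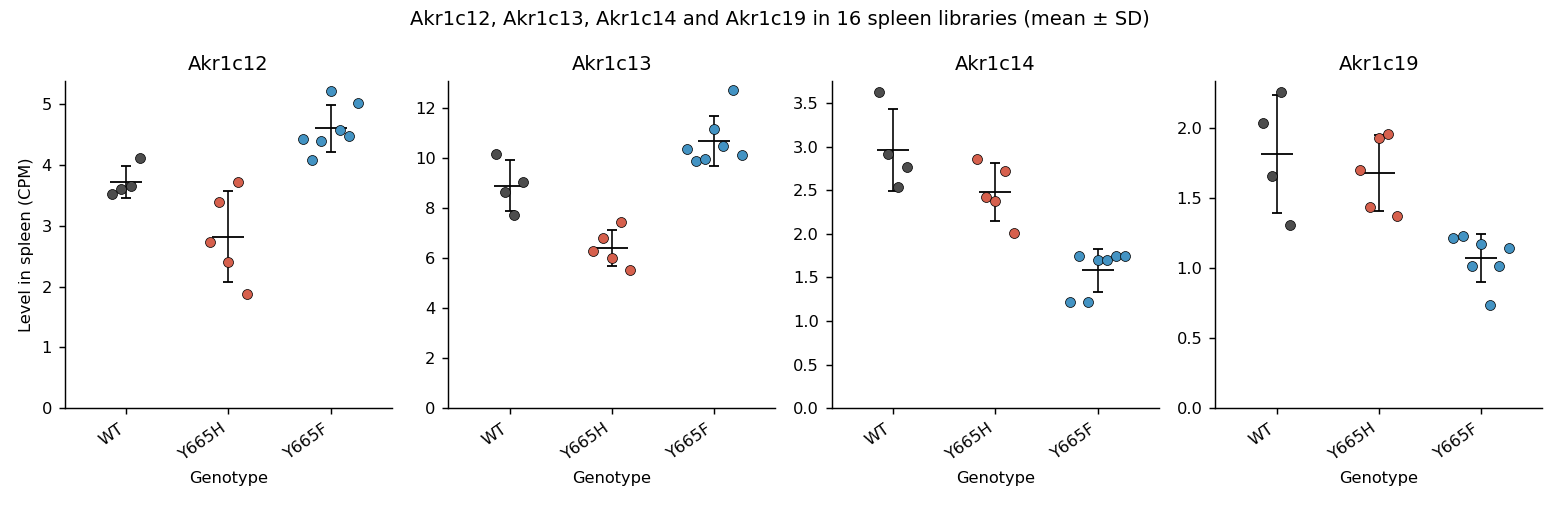
Akr1c12, Akr1c13, Akr1c14 and Akr1c19 in each spleen library, in CPM, by genotype, with group means and SD.

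The plot of spleen levels sets the 2 members with their highest values in Y665F beside the 2 with their lowest there. By an adjusted p under 0.05 with a log2 over 1 in size, edgeR called 0 of 8 members in each spleen comparison. The genes called were 233 (1.20% of 19418) for Y665F over WT, 848 (4.37%) for Y665H over WT and 1025 (5.28%) for Y665F over Y665H, and DESeq2 called 0 members and 254, 858 and 1009 genes. At an unadjusted p under 0.05 there were 3, 2 and 5 members beside 5516, 6391 and 7216 genes.

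By the adjusted p alone there were 2 members among 2373 genes (12.2%) for Y665F over WT, Akr1c14 at log2 −0.90 (standard error 0.15, adjusted p 0.00109) and Akr1c19 at −0.75 (0.18, adjusted p 0.0115). Akr1c13 had log2 0.26 and Akr1c12 0.31 there, with adjusted p of 0.0956 and 0.179. For Y665H over WT there was 1 member among 3837 genes (19.8%), Akr1c13 at log2 −0.47 (0.11, adjusted p 0.00603), with Akr1c12 at −0.39 (adjusted p 0.0875).

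For Y665F over Y665H there were 4 members among 5015 genes (25.8%): Akr1c12 at log2 0.70 (standard error 0.14, adjusted p 0.0014), Akr1c13 at 0.73 (0.10, adjusted p 4.95e-05), Akr1c14 at −0.64 (0.14, adjusted p 0.00244) and Akr1c19 at −0.64 (0.17, adjusted p 0.00885). Akr1c21 had log2 −1.02 (0.38, adjusted p 0.0548) from 2 to 13 reads a library. With only these 2 groups in the fit it passed both limits at log2 −1.004 (adjusted p 0.0319). Without Y665F replicate 4, Akr1c6 passed both limits for Y665F over WT at log2 −4.50 (adjusted p 0.0397), a gene with 35 reads in that library.

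The cells of the spleen differed as well. T cell markers, all 12 in the files above 0, summed to 803 to 942 CPM in WT (median 854), 537 to 808 in Y665H (557) and 1055 to 1424 in Y665F (1331). Erythroid markers, 9 genes with Hbb-bt at 0, summed to 716 to 1586 (median 1039), 769 to 5126 (4184) and 448 to 1475 CPM (777), and the 9 neutrophil markers to 201 to 324, 124 to 1573 and 398 to 975 CPM. The T cell sums thus order the genotypes as Akr1c12 and Akr1c13 do.

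B cell markers summed to 4232 to 4770, 3207 to 4651 and 3202 to 4044 CPM in WT, Y665H and Y665F, and the 13 macrophage markers, led by Lyz2, to 2531 to 3093, 2050 to 3235 and 2156 to 2652 CPM. The part of these cells in the levels of the cluster was not tested. The count files hold reads marked as not aligned in 0 of 4 WT libraries, 5 of 5 Y665H libraries and 7 of 7 Y665F libraries, a difference in handling that cannot be told apart from genotype.

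By gene, 7 of 12 T cell markers rose in Y665F over Y665H, Cd8b1 (log2 1.755), Cd3e (1.44) and Cd8a (1.39) first, with a list median of 1.03 against −0.01 over all genes. In Y665H over WT 5 of 7 erythroid and 8 of 9 neutrophil markers and 3 adipocyte markers rose, 4 of 6 natural killer markers fell, and Hdc, Cela2a and Cyp2e1 (3.075) rose. Some of these calls rest on wide Y665H ranges that overlap WT. Cela2a ran from 0.0316 to 4.88 CPM against 0 to 0.0929 in WT, and Cyp2e1 from 2.69 to 79.97 against 0.576 to 6.78. The adipocyte marker Cfd ran from 3.32 to 96.4 CPM against 0.504 to 6.26. In Y665F over WT 5 neutrophil markers, Mcpt8 (1.675) and Col1a1 (1.003) rose, and Cd163 (−1.39) and Ccr3 (−1.26) fell.

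In Y665F over Y665H 5 erythroid and 5 adipocyte markers, 1 pancreas and 1 liver marker and Cd163 (−1.41) fell, and 3 natural killer and 2 mast cell markers rose. The liver marker Cyp2e1, at 0.198 to 5.67 CPM in Y665F, and Cfd, at 0.515 to 3.38 CPM, overlapped their Y665H ranges. B cell markers had 0 past both limits in the 3 spleen comparisons.

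Of the other aldo-keto reductases, Akr1b7 fell in Y665F over WT (log2 −1.13) and over Y665H (−1.05). Akr1e1, next to the cluster, had log2 −0.27 (adjusted p 0.026) and −0.31 (adjusted p 0.00334) in these comparisons. Net1, on the other side, had log2 −0.01 (adjusted p 0.971) and −0.57 (adjusted p 0.000825) in them. Klf6 had −0.10 (adjusted p 0.255) and 0.27 (adjusted p 0.00114). In Y665H over WT Net1 had log2 0.57 (adjusted p 0.00436), Klf6 −0.37 (adjusted p 0.00138) and Akr1e1 0.04 (adjusted p 0.778). Of the steroid metabolism genes, Cyp17a1 fell in Y665H over WT (−1.28) and, with Rdh16 (1.74), was higher in Y665F over Y665H (1.54). Nqo1 (1.30) and Gclm (1.20) of the NRF2-linked genes rose in Y665H over WT and were lower in Y665F over Y665H (−1.53 and −1.28). Of the prostaglandin and receptor lists 0 passed in the 3 comparisons.

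Across the materials, each scaled on its own, Akr1c13 had the highest level per kilobase of Akr1c12, Akr1c13 and Akr1c18 in WT cells. Mean CPM per kilobase was 29.5 for Akr1c13, 20.1 for Akr1c12 and 24.5 for Akr1c18 in WT CD4+ T cells with the empty vector. It was 11.2, 2.38 and 0.827 in WT splenic T cells, and 6.21, 2.95 and 0.210 in WT spleen. Akr1c18 thus stood near the level of the other 2 genes in activated CD4+ T cells and well under both in splenic T cells and spleen, where no test across materials was made.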

How the data were processed

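The authors trimmed the reads with Trimmomatic 0.36 after FastQC 0.11.9, mapped them to mm10 with STAR, handled the alignments with SAMtools 1.9 and Picard 2.9.2 and deposited HTSeq 0.9.1 counts, 1 count file per library. The values are whole read counts per gene, and the lines for reads without a gene were kept out of library sizes.

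From the counts, 5 fits were made with edgeR 4.0.16 and limma 3.58.1 in R 4.3.3: null CD4+, WT CD4+, both CD4+, splenic T cells and spleen. Genes with at least 10 reads in total over the libraries of a fit were kept, scaled by TMM and tested by quasi-likelihood, with Benjamini-Hochberg adjustment over all genes of the fit. Called genes have an adjusted p under 0.05 together with a fold change over 1 on the log2 scale, up or down. Each standard error was taken from the fold change and its F value. CPM of CD4+ libraries come from the fit of both CD4+ sets. For the members, 20 comparisons were tested and 7 given as values only. The functions were tested on simulated data.

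Alternatives were RLE factors, DESeq2 1.42.0, other filters, only the groups compared, the replicate number as a block, no fold minimum, each library left out in turn, and 4 settings added after seeing the data. In null CD4+ cells libraries with the same replicate number deviate together in 30 of 30 pairs (median r 0.465, lowest 0.184), so the numbers pair these libraries; the pairing comes from the data and not from the labels.

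The members and lists were chosen with earlier results of these data known. Lists were other aldo-keto reductases, steroid metabolism, prostaglandin synthesis and breakdown, steroid and prostaglandin receptors, NRF2-linked antioxidant genes and markers of T, B, erythroid, neutrophil, macrophage, natural killer, mast, eosinophil, pancreas, adipocyte, stroma and liver cells. The labels do not say whether libraries of a group come from separate animals. For CD4+ T cells the paper describes plotted read counts as from independent biological replicates, without saying that these are separate animals. The p-values therefore measure only the spread between these libraries, and floors cover counting error only.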

Additional observations from a re-analysis of the deposited data

Results flagged for a closer look

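A library far from the others of its group was looked for in groups of 4 to 7 libraries, for each member, by the gap to the nearest library over the range of the group. Of 41 values tested 9 stood out, where chance alone marks about 1 in 20. All 9 are low counts.

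In spleen, Akr1c6 was at 0.7409 CPM in WT replicate 1 (nearest other library 0.0874) and at 1.322 CPM in Y665F replicate 4 (nearest 0.0396). The same Y665F library had Akr1c20 at 0.1511 CPM (nearest 0.0521). Liver markers summed to 35.26 CPM in WT replicate 1, with Alb at 22.15 CPM, and to 153.8 CPM in Y665F replicate 4, with Alb at 129.1 CPM, the highest sums of their groups. Y665H replicate 5 summed to 82.61 CPM, of which Cyp2e1 made 79.97 CPM, with Akr1c6 at 0.1003 CPM. Akr1c6 is a gene of liver, and the part of liver RNA was not tested. Akr1c21 was at 0.417 CPM in Y665H replicate 1 (nearest 0.285).

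In splenic T cells with interleukins, WT replicate 4 had Akr1c18 at 1.574 CPM (nearest 0.832), Akr1c20 at 0.3279 CPM (nearest 0.0502) and Akr1c21 at 0.7214 CPM (nearest 0.165). Y665F replicate 3, the library with erythroid markers at 1077 CPM, had Akr1c14 at 2.135 CPM (nearest 0.544) and Akr1c21 at 2.745 CPM (nearest 0.495).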

How the results depend on the processing

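Over 20 comparisons the count of members called was the same in 285 of 298 alternatives. Of 1000 log2 values of single genes 894 kept their sign and their side of the limits, 8 lost a call, 9 gained 1 and 89 changed sign, and no value called with all libraries changed sign. Depth limits the Y665H splenic T cell libraries most, and members with a few reads everywhere. The cause was not tested for any change below.

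Members called moved from 0 to 1 for Y665F over the empty vector in WT cells without replicate 3 of every WT group (Akr1c18). For Y665F over WT in splenic T cells, 2 members became 1 with the replicate block (Akr1c18 then had log2 2.15, adjusted p 0.088), 1 to 2 with a library left out, and 0 without the libraries with high B cell markers. For Y665H over WT DESeq2 called 1. For Y665F over Y665H the count also moved without the shallowest libraries, a setting that leaves 1 Y665H library and is not read further. In spleen, no fold minimum gave 2, 1 and 4 members for Y665F over WT, Y665H over WT and Y665F over Y665H, leaving out a library gave 0 to 1 for Y665F over WT, and only the groups compared gave 1 for Y665F over Y665H.

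With the replicate block, genes called went from 14 to 66, 2 to 39 and 0 to 0 for N642H over STAT5B, Y665F over STAT5B and Y665F over N642H in null cells, where the numbers pair the libraries; it changed no other call there. Elsewhere the numbers were not taken as pairs: correlations were above 0.1 in 29 of 30 pairs in WT CD4+ cells (median r 0.649, lowest 0.0114), 5 of 21 in splenic T cells and 4 of 13 in spleen. As a hint from the data and not the design, 14 of 15, 2 of 15 and 1 of 14 libraries correlated best with a library of their own number. In WT CD4+ cells the median r is above the 0.465 of null cells. The WT tests without the block therefore leave out what libraries of the same number share. With the block, counts went from 2 to 86, 202 to 532, 145 to 501 and 1 to 1 for STAT5B, N642H, Y665F and Y665H over the empty vector in WT cells, and 1 to 94, 0 to 44 and 1 to 16 for N642H, Y665F and Y665H over STAT5B. They went from 171 to 394, 165 to 397 and 220 to 446 for null STAT5B, N642H and Y665F over WT empty vector. In splenic T cells they went from 342 to 155, 16 to 9, 1066 to 802 and 662 to 519, and in spleen from 233 to 103, 848 to 647 and 1025 to 653. Signs changed with the block for Akr1c12 in N642H over STAT5B in null cells (−0.004926), Akr1c12 (−0.1616) and Akr1c13 (−0.01376) in N642H over the empty vector in WT cells, Akr1c13 in null STAT5B over WT empty vector (0.1154) and Akr1c18 in Y665H over WT in spleen (−0.03598).

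Other settings changed signs of values near 0. For N642H over the empty vector in WT cells, Akr1c12 had −0.0107 with filterByExpr, −0.008516 with DESeq2 and −0.4636 without replicate 3, and Akr1c13 −0.2972 without it. Without WT replicate 3, Akr1c18 had −0.04826 in N642H over STAT5B in WT cells. Null STAT5B over WT empty vector then had 0.1708 for Akr1c12 and 0.4719 for Akr1c13 (0.0006992 with no filter), null N642H 0.198 for Akr1c12 and 0.05349 for Akr1c18, and null Y665F 0.3575 and 0.1933. With over without interleukin had 0.04712 for Akr1c12 and 0.5012 for Akr1c13 without the libraries with high B cell markers, and 0.2132 for Akr1c13 without the shallowest.

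Leaving out each library in turn gave these lowest and highest log2 values where a sign changed. In null cells Akr1c12 ran from −0.166 to 0.1243 for N642H over STAT5B, −0.02413 to 0.272 for Y665F over STAT5B and −0.06805 to 0.3242 for Y665F over N642H, and Akr1c18 from −0.1893 to 0.4398 for the last. In WT cells over the empty vector, Akr1c12 and Akr1c13 ran from −0.4426 to 0.677 and −0.3175 to 0.6422 with STAT5B, −0.9635 to 0.522 and −0.7812 to 0.6204 with N642H, −0.5194 to 0.583 and −0.2632 to 0.7379 with Y665F, and −0.4168 to 0.7603 and −0.2567 to 0.7374 with Y665H, where Akr1c18 ran from −0.3799 to 1.026. Over STAT5B, Akr1c12 and Akr1c13 ran from −1.13 to 0.4409 and −0.932 to 0.4326 with N642H, −0.6816 to 0.4992 and −0.4092 to 0.5475 with Y665F, and −0.5789 to 0.6874 and −0.4027 to 0.5579 with Y665H. Akr1c18 ran from −0.351 to 0.4855 with N642H and −0.7314 to 0.2419 with Y665H. In WT cells the extremes came from leaving out a replicate 3.

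Over WT empty vector, Akr1c12 and Akr1c13 ran from −0.5627 to 0.1846 and −0.2378 to 0.4853 in null STAT5B, and from −0.5372 to 0.2057 and −0.09701 to 0.6181 in null N642H, where Akr1c18 ran from −1.003 to 0.05935. In null Y665F Akr1c12 ran from −0.3876 to 0.3671 and Akr1c18 from −0.8782 to 0.2005. With over without interleukin Akr1c12 ran from −0.4726 to 0.1751 and Akr1c13 from −0.2495 to 0.2045. For Y665H over WT in spleen Akr1c18 ran from −0.1816 to 0.5566 and Akr1c19 from −0.253 to 0.008159.

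With a library left out, the genes called over all genes ran from 3 to 25, 0 to 35 and 0 to 0 for N642H over STAT5B, Y665F over STAT5B and Y665F over N642H in null cells. In WT cells they ran from 2 to 5, 70 to 350, 32 to 420 and 1 to 1 for STAT5B, N642H, Y665F and Y665H over the empty vector, and 0 to 10, 0 to 0 and 0 to 2 for N642H, Y665F and Y665H over STAT5B. For null STAT5B, N642H and Y665F over WT empty vector they ran from 57 to 306, 64 to 239 and 92 to 294. In splenic T cells the counts were 93 to 809 for Y665F over WT, 0 to 38 for Y665H over WT, 557 to 1201 for Y665F over Y665H and 398 to 909 for with over without interleukin. In spleen they were 137 to 351, 617 to 1095 and 813 to 1311 for Y665F over WT, Y665H over WT and Y665F over Y665H.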
